A study of Ascaris suum with 62 samples.

Results

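The CENP-A peak list of 46hr embryos of the pig roundworm Ascaris suum held 18119 peaks and the list of 0hr embryos held 21837. Together these 39956 peaks are the 46hr list and the 0hr list in full, taken without any filter. The 12 CENP-A lists of the series held 163819 peaks. The series studied where CENP-A sits in relation to programmed DNA elimination, and its 62 samples include 24 CENP-A ChIP-seq libraries, of which 4 were compared here. ChIP-seq sequences the DNA that is pulled down with a protein. The 46hr embryos were fertilised eggs kept for 46 hours at 30 °C with shaking in acidic PBS. The 0hr embryos were the same kind of egg, taken from the last proximal part of the female uterus, with no incubation. Both kinds were freed from the uterus with alkali and stored cold, and the egg coat was removed at 30 °C from developing embryos but in the cold, over a longer time, from zygotes. No difference of genotype or strain is stated, and the labels give neither the number of females nor the number of cells per embryo. Each stage has 1 single-end and 1 paired-end library according to the labels, and the tables do not tell which column belongs to which, so the columns are called library 1 and library 2.

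CENP-A is the histone H3 variant that marks the chromatin on which kinetochores are built. In Ascaris, chromosomes are holocentric, which means that CENP-A and kinetochores lie along the length of the chromosome and not at a single site. Early embryonic cells that become soma break their chromosomes and discard part of the DNA, while the germline keeps all of it. DNA without a working kinetochore is not pulled to the spindle poles at division.

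The mark "eliminated" or "retained" on each peak is the authors'. Peaks marked eliminated lay in 67 blocks with 12.9 Mb in all, and retained DNA spanned 271 Mb, with each scaffold taken to end at the last peak of any list. Coordinates are the authors' on the AgBionano_v1.9 scaffolds, and whether starts count from 0 or 1 is not stated. Reads in peaks were 10073082 and 3013202 in the 46hr libraries and 4118697 and 4265318 in the 0hr libraries. Levels are given as RPM, reads scaled to 1000000 reads in peaks of the same library, so each value is a share and a fall in one place raises the others. The 2 libraries of a stage correlated at r = 0.875 at 46hr and 0.898 at 0hr in log reads per kb over all peaks. Their chi-square per degree of freedom was 3.18 at 46hr and 3.52 at 0hr, above counting noise. The labels do not tell separate batches of eggs apart, so p-values measure the spread between these 4 libraries, which may be technical.

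The peaks covered almost the same length at both stages, but a large part of that length lay in different places. Peaks covered 56.6 Mb at 46hr and 59.7 Mb at 0hr, and 37.0 Mb was common to both lists. This was 65.4% of the 46hr length and 62.0% of the 0hr length, and the Jaccard index (shared over joint length) was 0.467. By mark, the Jaccard index was 0.293 in eliminated DNA and 0.472 in retained DNA. Of the 46hr peaks, 74.5% overlapped a 0hr peak by at least 1 bp, and of the 0hr peaks 64.3% overlapped a 46hr peak. With 50% of the peak required to overlap, the shares were 60.8% of 46hr peaks and 51.5% of 0hr peaks. Only 2 of 16679 overlapping pairs carried opposite marks. There is 1 peak list per stage, so these shares have no replicate and no test.

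Peaks found in only one list were narrow. The 4627 peaks found only at 46hr had a median width of 1209 bp, against 2372 bp for shared 46hr peaks. The 7788 peaks found only at 0hr had a median width of 1238 bp, against 2476 bp for shared 0hr peaks. Such peaks held 9.96% and 10.5% of the reads of the 46hr libraries, and 20.3% and 21.3% of the reads of the 0hr libraries.

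The main change in eliminated DNA was a loss of peaks. The list of 46hr embryos held 418 eliminated peaks covering 878 kb, and that of 0hr embryos held 869 covering 1898 kb. These covered 6.80% of the eliminated blocks at 46hr and 14.7% at 0hr. Retained peaks numbered 17701 over 55.7 Mb at 46hr and 20968 over 57.8 Mb at 0hr. Eliminated peaks took 5.43% and 4.50% of the reads in the 46hr libraries, against 13.3% and 13.4% in the 0hr libraries, and the stages did not overlap. The mean share was 4.97% ± 0.652 at 46hr and 13.3% ± 0.0465 at 0hr (SD, n = 2 each), a difference of -8.38 percentage points with a two-sided exact permutation p of 0.333, the smallest that 2 libraries against 2 allow. Input libraries were not used here, so less CENP-A per DNA copy, fewer copies of this DNA, and fewer cells that hold it cannot be told apart.

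**Figure D1:**
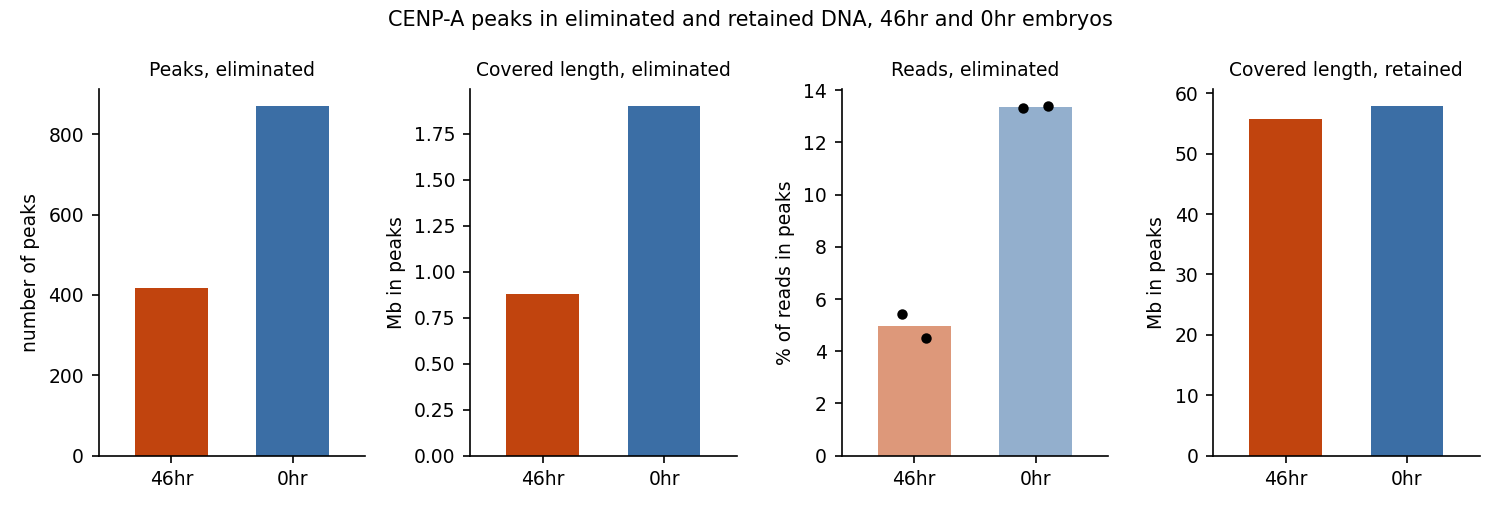
The 4 panels show, for 46hr embryos (left bar) and 0hr embryos (right bar), the number of eliminated peaks, the Mb they cover, the percent of reads in peaks that they hold (bar: mean; dots: the 2 libraries), and the Mb covered by retained peaks. Eliminated peaks numbered 418 at 46hr and 869 at 0hr, while retained cover was 55.7 Mb at 46hr and 57.8 Mb at 0hr.

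Eliminated 0hr peaks had a 46hr peak over them less often than retained 0hr peaks. Of the 869 eliminated 0hr peaks, 36.7% overlapped a 46hr peak (Wilson 95% interval 33.6 to 40.0%, counting error only). Of the 20968 retained 0hr peaks, 65.5% did (64.8 to 66.1%). The gap was present in each width class. In the eliminated set 13.1% of peaks under 1 kb, 23.8% of those of 1 to 2 kb, 55.6% of those of 2 to 5 kb and 89.7% of those over 5 kb overlapped a 46hr peak. In the retained set the shares were 37.1%, 53.2%, 80.3% and 98.4% in the same order of width. Of 0hr peaks over 5 kb, most were still found at 46hr, also in eliminated DNA. In the other direction, 80.1% of eliminated 46hr peaks and 74.3% of retained 46hr peaks overlapped a 0hr peak, so few of the eliminated peaks found at 46hr were at new places.

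Where an eliminated site had a peak at both stages, the peak was mostly narrower at 46hr. The peaks of both lists were joined into loci by overlap. Among the 922 eliminated loci, 550 had a 0hr peak only, 83 had a 46hr peak only, 232 had 1 peak in each list, 30 were split at 46hr, 21 were merged at 46hr and 6 had several peaks in each list. In the 232 one-to-one loci the median width was 1602.5 bp at 46hr and 2442 bp at 0hr, with a median ratio of 0.752, and 27.6% were wider at 46hr. In the 7015 retained one-to-one loci the median width was 2127 bp at 46hr and 2247 bp at 0hr, with a median ratio of 0.977, and 47.9% were wider at 46hr. These loci had to pass the peak call at both stages, and sites that lost their peak are not among them.

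Read density per locus was tested in edgeR's quasi-likelihood model with Benjamini-Hochberg adjustment at 0.05, with each stage's own peak length as an offset. Over all 10862 loci with peaks in both lists, 24.9% were called higher and 4.62% lower at 46hr, with a median log2 difference of 0.12. Of the 289 eliminated loci, 78 were called higher and 9 lower, with a median log2 difference of 0.15. Of the 10571 retained loci, 2626 were called higher and 493 lower, with a median of 0.11. The excess of higher calls depended on the scaling. Every library is set to the same total, and cover is shorter at 46hr. Over all peaks, list-only ones included, total RPM per kb of total cover is therefore 0.08 higher at 46hr on the log2 scale. This value weights peaks by length and is not a mean or median over loci. The loci tested here covered 49.8 Mb at 46hr and 48.7 Mb at 0hr. List-only peaks took 9.96% and 10.5% of reads at 46hr and 20.3% and 21.3% at 0hr, which leaves a larger share for these loci at 46hr. The part of the excess due to this scaling was not tested. TMM scaling (edgeR's trimmed mean of M values) shifted the median by -0.10 and gave 1494 higher and 854 lower loci. Size factors by edgeR's RLE method (relative log expression) shifted it by -0.11 and gave 1415 higher and 878 lower. Higher loci were thus 84.3% of calls with the reads in peaks, 63.6% with TMM and 61.7% with size factors. Among peaks at or above the median density of both lists together, 74 loci were higher and 2611 lower, so no overall direction of density is given here. For eliminated loci the same settings gave 48 higher and 18 lower with TMM, 45 and 18 with size factors, and 7 and 76 of 150 with the denser peaks. Without 0hr library 1 or 2, higher loci numbered 1314 and 1313 and lower loci 151 and 228. Without 46hr library 1 or 2, lower loci numbered 277 and 853.

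The loss in eliminated DNA was spread over most scaffolds that carry such DNA. A segment is the set of peaks of 1 mark on 1 scaffold. Of all 477 segments tested on reads in peaks (edgeR, quasi-likelihood, adjusted p under 0.05), 43% were called higher and 32.3% lower at 46hr, 75.3% in either direction. Of the 57 eliminated segments, 45 were lower, 4 were higher and 8 were not called. In 15 of the lower ones no 46hr peak was left, so their call is set by the peak call. Without 0hr library 1 or 2 such segments were not tested, and 28 and 29 of 42 eliminated segments were lower, of 84 and 79 lower segments in all. The 40 eliminated segments with peaks in both lists had a median log2 difference of -1.11. Of the 420 retained segments, 201 were higher, 109 lower and 110 not called. Among the 420, 46 had peaks at 46hr only and 35 at 0hr only, so any call there is set by the peak call. With TMM 168 retained segments were higher and 127 lower, and with size factors 165 and 134. Over all segments higher and lower calls then numbered 172 and 173 with TMM and 169 and 181 with size factors, so the excess of higher segments depended on the scaling. The 339 retained segments with peaks in both lists had a median log2 difference of 0.12. Eliminated peaks held fewer RPM at 46hr both on scaffolds where every peak was eliminated and on scaffolds with both marks. Lower eliminated segments were 17 of 21 on wholly eliminated scaffolds and 28 of 36 on scaffolds with both marks. A 46hr peak overlapped 31.3% of the 0hr eliminated peaks on wholly eliminated scaffolds and 41.5% on scaffolds with both marks.

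Scaffold 84 carried the most CENP-A reads of any eliminated segment. Its eliminated segment had 35539 and 27045 RPM at 46hr, against 71899 and 57440 at 0hr. The difference was -1.05 on the log2 scale (SE 0.14, edgeR adjusted p = 0.000392), and both 46hr libraries were below both 0hr libraries. A single narrow peak made up most of these reads. At 46hr it ran from 59853 to 61331 and held 34856 and 26209 RPM, which was 3.49% and 2.62% of all reads in peaks. At 0hr it ran from 59593 to 61403 and held 52427 and 37113 RPM, which was 5.24% and 3.71% of all reads in peaks. How reads that match several places were counted is not given in the sources used here. The other peaks of the segment, 22 at 46hr and 51 at 0hr, held 683 and 836 RPM at 46hr and 19473 and 20327 at 0hr. Without this peak, and with library totals recomputed, the log2 difference of the segment was -4.74 in place of -1.05, so 1 peak decided its size. A second peak of scaffold 84, from 308340 to 310093, held 16018 and 15974 RPM at 0hr and had no overlapping 46hr peak.

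Scaffold 35 had the next most reads. Its eliminated segment, with 51 peaks at 46hr and 111 at 0hr, held 3998 and 4551 RPM at 46hr, against 13848 and 20179 at 0hr (log2 difference -1.99, SE 0.16, adjusted p = 2.27e-05). Most of the loss lay in 100 kb from 1200001 to 1300000, where peaks covered 1.76% at 46hr and 23.1% at 0hr. On the log2 scale, scaffold 208 had the largest fall among the 8 eliminated segments with most reads at 0hr. It held 95.8 and 95.2 RPM at 46hr, against 3772 and 5966 at 0hr (log2 difference -5.67, SE 0.23, adjusted p = 6.92e-07). It had 4 peaks at 46hr and 25 at 0hr. Scaffold 158 held 758 and 758 RPM at 46hr, against 7104 and 7484 at 0hr (log2 difference -3.27, SE 0.05, adjusted p = 1.40e-08). Its stretch of 74.6 kb from 300001 to 374564 had no peak at 46hr and 19.7% cover at 0hr. Scaffolds 129, 127, 10 and 54 were lower at 46hr, with log2 differences of -3.54, -3.28, -1.42 and -1.29, each with both 46hr libraries below both 0hr libraries. Together the 8 segments accounted for 83.3% of the net change of eliminated reads.

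The other 12 eliminated segments were not called lower. Scaffold 204 had 1132 and 990 RPM at 46hr, against 958 and 943 at 0hr, with 13 peaks at 46hr and 17 at 0hr. The log2 difference was 0.16 (SE 0.08, adjusted p = 0.0959) and was not called, though it was with DESeq2 (adjusted p = 0.0315) and without 46hr library 2 (adjusted p = 0.00527). Without 46hr library 1 it was 0.06 (adjusted p = 0.197). Scaffold 169 had 251 and 212 RPM at 46hr, against 179 and 175 at 0hr, and was called higher by 0.40 on the log2 scale (SE 0.09, adjusted p = 0.00445). It was 0.26 without 46hr library 1, and with peaks at or above the median density it was 0.24 and not called (adjusted p = 0.11). Scaffolds 466 and 468 had eliminated peaks at 46hr only, 2 on scaffold 466 and 1 on scaffold 468. The range among eliminated segments with peaks at both stages was therefore -5.67 to 0.40 on the log2 scale.

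**Figure D2:**
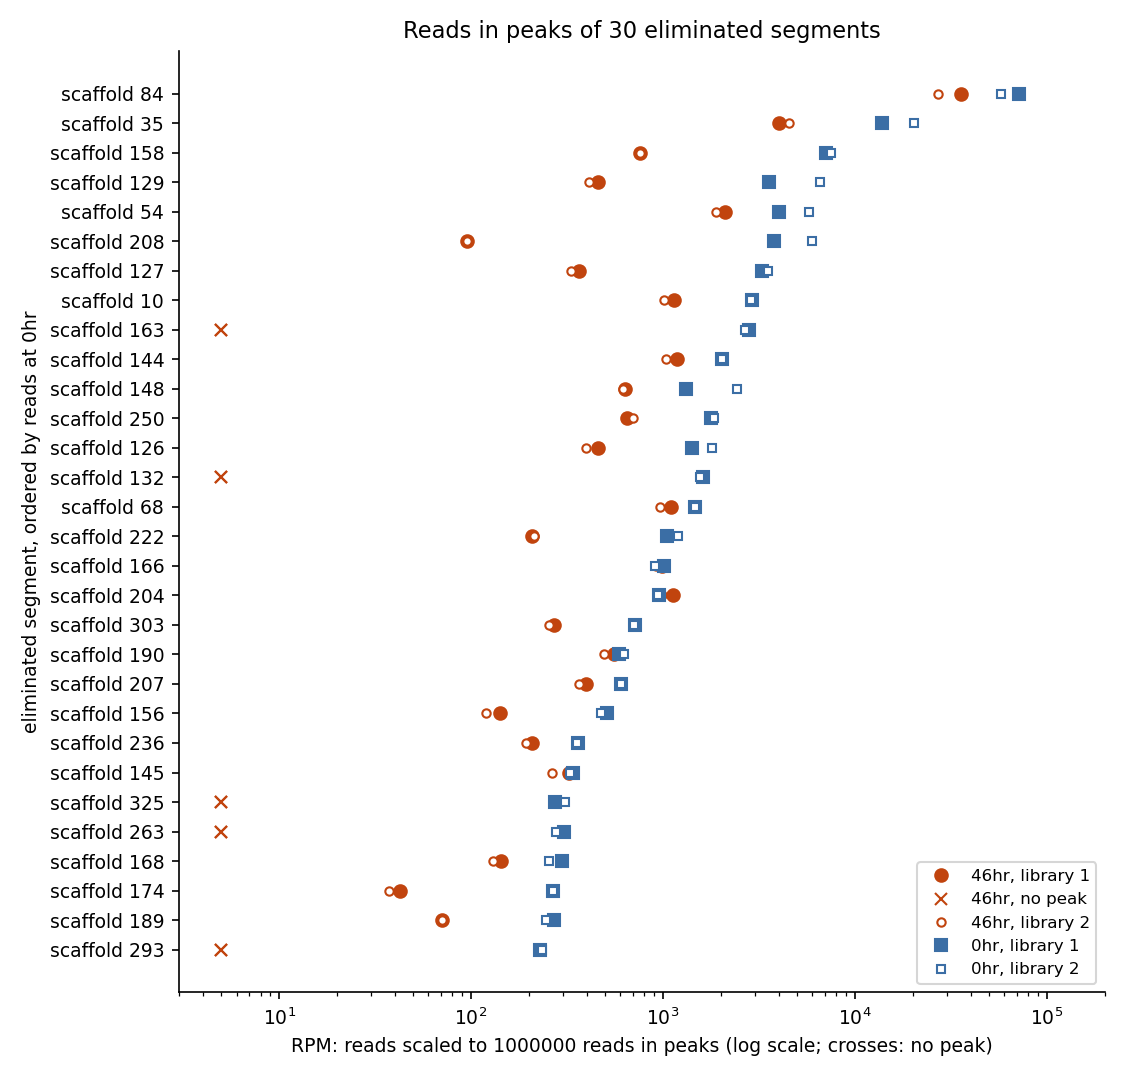
The plot gives the RPM, on a log axis, of the 30 eliminated segments with most reads at 0hr, for each 46hr library (circles) and 0hr library (squares), with crosses at the left for segments with no 46hr peak. In scaffold 208 the 46hr libraries stand at 95.8 and 95.2 against 3772 and 5966 at 0hr, while in scaffold 204 the stages lie side by side.

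Most eliminated peaks of 0hr embryos had no counterpart at 46hr, the strongest among them included. Of all 869 eliminated 0hr peaks, 550 had no overlapping 46hr peak (63.3%), and of the 394 that were 1 to 2 kb wide 76.1% had none. Of the 10 eliminated 0hr peaks with most reads, which were chosen on their 0hr level, 8 had none. The 10 lay on scaffolds 84, 35, 129, 208, 158 and 54. The peak on scaffold 35 from 1284718 to 1286384 held 6171 and 8463 RPM at 0hr. The peak on scaffold 129 from 147416 to 149087 held 1333 and 4131 at 0hr, so the 0hr libraries did not agree closely there. The peak on scaffold 208 from 168742 to 169764 held 1954 and 2767, and the peak on scaffold 158 from 158260 to 161249 held 2161 and 2335. These are the 0hr-only peaks with most reads, together with the second peak of scaffold 84. The 0hr libraries also differed at other peaks of the 10. They held 2632 and 6215 RPM on scaffold 35 from 1278740, and 597 and 2010 on scaffold 208 from 181620. On scaffold 54 from 715120 they held 460 and 1597. Library 1 was the higher at the strongest peak of scaffold 84, with 52427 and 37113. The 10 strongest eliminated peaks of each list held 3.81% and 3.01% of reads at 46hr and 8.48% and 8.16% at 0hr. Without them, eliminated peaks still held 1.61% and 1.49% of reads at 46hr against 4.83% and 5.22% at 0hr. Peaks with at least 100 RPM per kb numbered 91 at 46hr, 12 of them eliminated, and 130 at 0hr, 42 of them eliminated.

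Retained peaks were fewer at 46hr, but broad peaks were more frequent. Peaks wider than 10 kb numbered 921 at 46hr, covering 12.9 Mb, and 627 at 0hr, covering 8.44 Mb. All but 1 of the broad 46hr peaks were in retained DNA, as were 622 of the 627 broad 0hr peaks and 17701 of all 18119 46hr peaks. Broad peaks held 25.1% and 24.9% of the reads at 46hr, against 13.4% and 13.5% at 0hr. Their density was also higher, at 19.4 and 19.3 RPM per kb at 46hr and 15.9 and 16.0 at 0hr. Retained peaks of all widths had 17.0 and 17.1 RPM per kb at 46hr and 15.0 and 15.0 at 0hr. As given above for loci, the excess of higher density depended on the scaling. Of the 921 broad 46hr peaks, 505 lay over several 0hr peaks that were all 10 kb or less, 351 lay over a broad 0hr peak, 58 lay over 1 narrower 0hr peak and 7 lay over none. Of the 627 broad 0hr peaks, 345 lay over a broad 46hr peak, 249 over several narrower ones, 32 over 1 narrower one and 1 over none. In the other classes, peaks of 1 to 5 kb covered less at 46hr, with 9.04 Mb in the class of 1 to 2 kb against 11.6 Mb at 0hr, and 17.1 Mb in the class of 2 to 5 kb against 21.9 Mb at 0hr. Reads in peaks were 10073082 and 3013202 at 46hr and 4118697 and 4265318 at 0hr, with 1 peak call per stage. Whether this difference in depth bears on peak width was not tested.

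**Figure D3:**
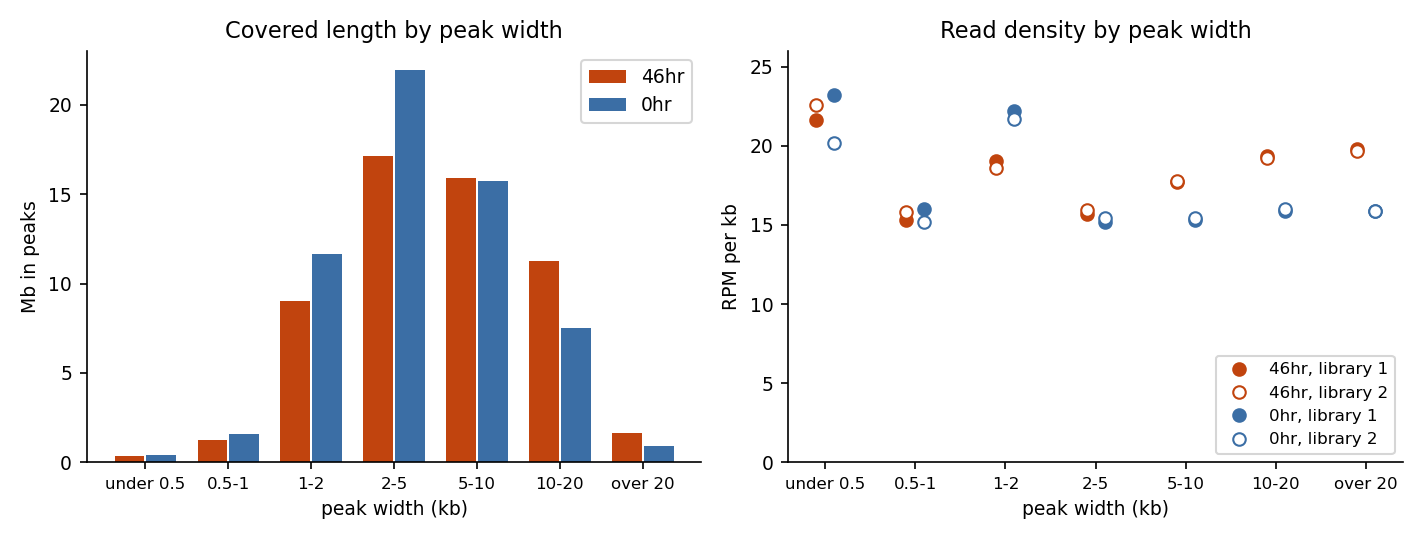
The left panel gives the Mb covered by peaks of each width class at 46hr (left bar) and 0hr (right bar), and the right panel gives the RPM per kb in each library. The classes over 10 kb covered more at 46hr and had densities of 19.2 to 19.8 at 46hr against 15.9 to 16.0 at 0hr.

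Merging was somewhat more common than splitting. In all 23277 loci, 1542 had several 0hr peaks under 1 peak at 46hr, and 1276 had 1 peak at 0hr and several at 46hr. Merged loci covered 12.9 Mb at 46hr and 9.84 Mb at 0hr, and 81.1% of them were longer at 46hr. Split loci covered 6.87 Mb at 46hr and 8.75 Mb at 0hr, and 21.1% of them were longer at 46hr. A further 797 loci had several peaks in each list, and 7247 had 1 peak in each. Neighbouring peaks of a list were never closer than 586 bp at 46hr and 582 bp at 0hr, so a merge or split also depends on whether the signal between peaks passed the peak call. A part played by the unequal read depth of the stages was not tested.

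The largest merge joined 7 peaks of 0hr embryos on scaffold 42 between 333997 and 361308. The joined peak held 536 and 545 RPM over 27.1 kb at 46hr, against 271 and 277 over 16.8 kb in the 0hr peaks. On scaffold 65, between 390616 and 414329, 6 peaks of 0hr embryos were joined, with 493 and 541 RPM at 46hr and 179 and 181 at 0hr. The other merges of 6 peaks with the longest cover lay on scaffolds 13, 32 and 18, and RPM were higher in both 46hr libraries in each of them. The largest splits gave 5 peaks at 46hr. The widest 0hr peak among these, on scaffold 2 from 1848522 to 1875459, covered 26.6 kb at 0hr and left 19.7 kb of peaks at 46hr. It held 399 and 348 RPM at 46hr, against 408 and 416 at 0hr. The narrowest of the 5 widest, on scaffold 206 from 173159 to 186116, left 7.84 kb of peaks at 46hr against 13.0 kb at 0hr, with 127 and 135 RPM at 46hr against 187 and 193 at 0hr. Of the 7 splits into 5, the others among the 5 widest lay on scaffolds 16, 97 and 6.

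The 60hr list, which took no part in these classes, gives the same loci at a later time. A single 60hr peak lay over 68.5% of merged loci and several over 26.8%. In split loci the shares were 49.7% and 36.6%, and in one-to-one loci 62.5% and 9.78%. No 60hr peak was found in 4.67% of merged, 13.7% of split and 27.7% of one-to-one loci. These loci differ in length, and longer loci have more room for a peak.

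Reads were also compared in 20 kb windows along the scaffolds. Of 10870 windows tested (edgeR, quasi-likelihood, adjusted p under 0.05), 39.2% were called higher and 46.5% lower at 46hr. With 85.7% of windows called in either direction, a call by itself says little, so sizes are given too. Of 451 eliminated windows, 57 were called higher, 354 lower and 40 neither. Of 10419 retained windows, 4205 were higher, 4705 lower and 1509 neither. In windows with a peak in only one list the call is set by the peak call. These were 187 eliminated and 1751 retained windows with a 0hr peak only, and 16 eliminated and 601 retained windows with a 46hr peak only. In the 248 eliminated windows with peaks in both lists the median log2 difference was -0.62, with 11 called at least 2-fold higher and 91 at least 2-fold lower. In the 8067 retained windows with peaks in both lists the median was 0.09, with 1163 at least 2-fold higher and 1231 at least 2-fold lower. These numbers rest on setting every library to the same reads in peaks. With peaks at or above the median density, higher windows numbered 3939 and lower windows 3521 in all, so the order of the totals turned. Without 0hr library 1 or 2, windows with a 0hr peak only were not tested, higher windows numbered 3927 and 3927, and lower windows numbered 2816 and 2846, of which 160 and 163 were eliminated.

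**Figure D4:**
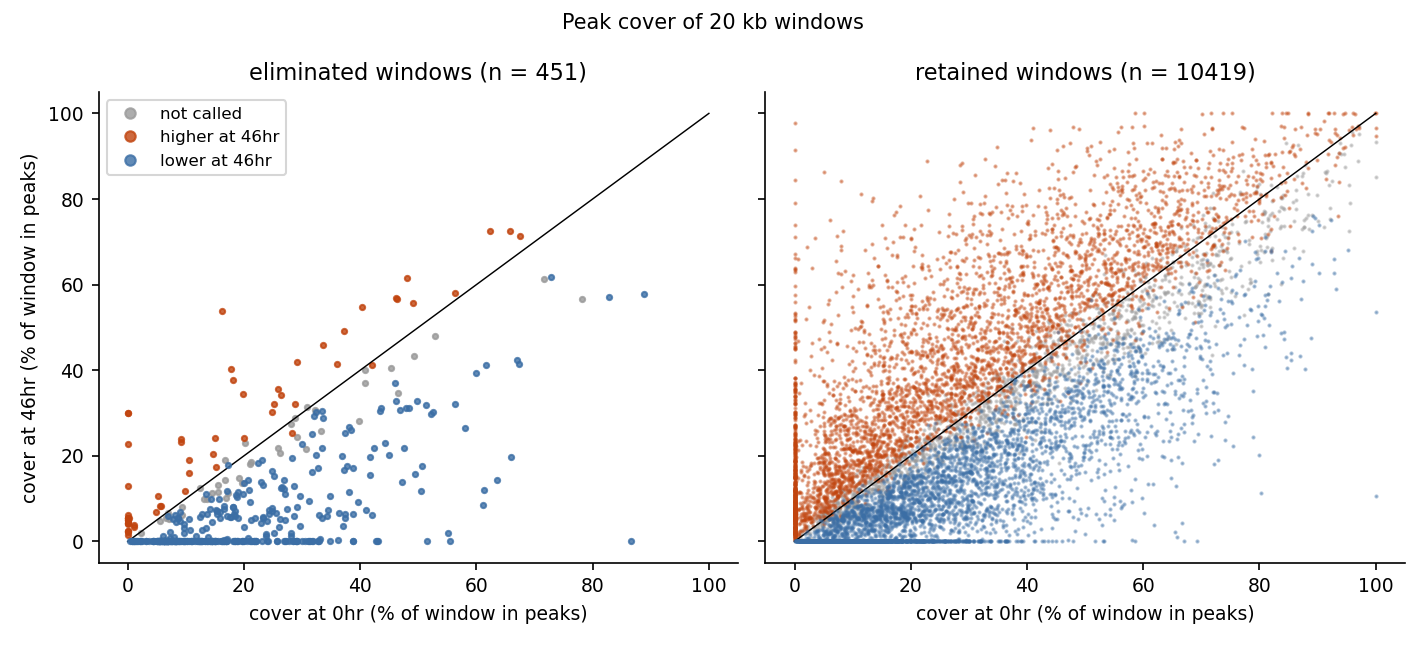
Each dot is a 20 kb window tested, with the percent of its length in peaks at 0hr on the horizontal axis and at 46hr on the vertical axis, for 451 eliminated and 10419 retained windows, coloured by the call on reads. Eliminated windows lie mostly under the diagonal, with 354 called lower at 46hr, and retained windows lie on both sides.

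Retained cover was also less evenly spread at 46hr. Windows with no peak at all were 36.6% of the 13706 retained windows at 46hr and 28.1% at 0hr. Windows at least 50% covered were 2065 at 46hr and 1874 at 0hr, and 1275 were so at both stages. By segment length, the 84 retained segments at least 1 Mb long had 48 higher, 6 lower and 30 not called. They held 77.3% and 77.4% of all reads in peaks at 46hr, against 69.7% and 69.5% at 0hr. These are shares of a fixed total, in which all retained peaks together held 94.6% and 95.5% at 46hr and 86.7% and 86.6% at 0hr. The covered length of these 84 segments was 45.3 Mb at 46hr and 46.9 Mb at 0hr. The 144 retained segments under 100 kb long had 68 higher, 50 lower and 26 not called. Of these 144 segments, 36 had a peak at 46hr only and 29 at 0hr only.

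The largest gains lay in retained stretches of 120 to 240 kb. On scaffold 60, from 120001 to 280000, 8 neighbouring windows were called higher, with 1885 and 1716 RPM at 46hr against 713 and 698 at 0hr. Peaks there covered 59.4% at 46hr and 34.1% at 0hr, and 76.4% in the 60hr list, which was not used for the calls. On scaffold 44, from 580001 to 700000, the levels were 946 and 961 at 46hr and 187 and 181 at 0hr, a log2 ratio of 2.37, the largest of the 8 leading gains. Cover there was 40.1% at 46hr and 10.9% at 0hr. On scaffold 153, from 1 to 120000, the values were 986 and 1077 at 46hr and 304 and 316 at 0hr. On scaffold 65, from 360001 to 480000, they were 1321 and 1417 at 46hr and 520 and 525 at 0hr, and this stretch holds the merge of 6 peaks given above. The longest stretch, 240 kb on scaffold 21 from 1240001 to 1480000, had 1489 and 1606 at 46hr and 755 and 723 at 0hr. The leading gains on scaffolds 27, 40 and 25 had log2 ratios of 1.33, 1.15 and 1.02. In all 8 stretches both 46hr libraries were above both 0hr libraries, and cover in the 60hr list was above that at 46hr.

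The largest losses were all in eliminated DNA. They lay on scaffolds 84, 35, 208, 158, 129 and 127, at the peaks and segments given above. On scaffold 127, from 200001 to 340000, the levels were 52.5 and 43.1 at 46hr and 2373 and 2603 at 0hr. The loss in the window of scaffold 84 from 40001 to 60000 stands where the strongest peak crosses the window's end: the part of that peak inside it was longer at 0hr, since the peak began at 59593 there and at 59853 at 46hr.

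A few broad 46hr peaks lay where the 0hr list had no peak. The 5 peaks found only at 46hr with most reads were all retained, as were 4544 of all 4627 peaks found only at 46hr (98.2%). Of all 18119 peaks of the 46hr list, 17701 were retained, so this share is near that of the whole list. The first, 18.7 kb wide on scaffold 9 from 601730 to 620390, held 349 and 400 RPM. The next were 20.2 kb wide on scaffold 19 from 1650469, with 320 and 337, and 6.03 kb wide on scaffold 145 from 419898, with 277 and 258. The others lay on scaffolds 6 and 92.

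At single loci, read density changed by more than 2-fold in few cases. Of the 10862 loci, 111 were called at least 2-fold higher and 57 at least 2-fold lower at 46hr. Among loci with at least 1 kb of peak in both lists, the largest rise was on scaffold 4 from 5856653 to 5858251, with 28.1 and 29.5 RPM per kb at 46hr against 11.9 and 13.1 at 0hr (log2 difference 1.20, SE 0.14, adjusted p = 1.59e-07). On scaffold 243 from 116641 to 122086 the density was 31.8 and 30.2 at 46hr against 12.7 and 15.0 at 0hr, a log2 difference of 1.17. The next rises were on scaffolds 60, 137 and 80, at 1.10, 1.08 and 1.07. The locus on scaffold 80 had fewer RPM at 46hr (99.6 and 49.8) than at 0hr (123 and 108), on a peak of 2.22 kb at 46hr against 6.60 kb at 0hr, so its sign turned to -0.51 without the length offset. Its difference was 0.36 without 46hr library 1, and DESeq2 did not call it (adjusted p = 0.21).

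The largest fall in density rested on 1 library. On scaffold 19 from 2785892 to 2790434 the density was 14.8 and 15.7 RPM per kb at 46hr, against 25.6 and 405 at 0hr. The log2 difference of -3.83 was -0.76 without 0hr library 2, and DESeq2 did not call it (adjusted p = 0.0832). The next fall, on scaffold 25 from 238639 to 243415, had 13.2 and 10.4 at 46hr against 28.9 and 28.3 at 0hr (log2 difference -1.21, SE 0.12, adjusted p = 8.37e-09). Falls on scaffolds 50, 250 and 265 were -0.91, -0.84 and -0.81, of which that on scaffold 250 was in eliminated DNA. It was -0.43 without 46hr library 1, and DESeq2 did not call it (adjusted p = 0.138). The locus on scaffold 50 had a log2 difference of 0.05 without the length offset.

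Some retained segments gained their first peaks or lost all of them. Retained segments with peaks at 46hr only numbered 46, and those with peaks at 0hr only numbered 35. Scaffold 283 had 8 peaks at 46hr with 400 and 475 RPM and none at 0hr, on a segment whose peaks in all lists span 108 kb. Scaffolds 160, 157, 187 and 292 likewise had peaks at 46hr only. Ovary3 peaks covered 10.9% of the segment on scaffold 283, and 23.3%, 11.3%, 16.3% and 0% of those on scaffolds 160, 157, 187 and 292. Scaffold 146 had 34 peaks at 0hr with 647 and 648 RPM and none at 46hr, on a segment whose peaks in all lists span 375 kb. The 60hr list had no peak there either, and ovary3 peaks covered 16.7% of it. Scaffolds 140, 318, 216 and 279 likewise had peaks at 0hr only, and their ovary3 cover was 8.94%, 0%, 0% and 17.3%. The 35 segments emptied at 46hr held 146 peaks at 0hr, with 5749 and 5937 RPM in all.

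Most 0hr-only peaks were also without a 60hr peak, and most 46hr-only peaks in retained DNA had one. Of the 4544 retained peaks found only at 46hr, 65.8% overlapped a 60hr peak, and of the 7238 retained peaks found only at 0hr 17.1% did. For retained peaks shared by both lists, which were wider, 75.9% of the 46hr peaks and 80.7% of the 0hr peaks did. Among eliminated peaks, 21.7% of the 83 found only at 46hr and 7.09% of the 550 found only at 0hr overlapped a 60hr peak. Against the ovary3 list, the order was the other way. Ovary3 peaks overlapped 18.6% of the retained peaks found only at 46hr and 36.1% of those found only at 0hr. In eliminated DNA ovary3 peaks overlapped 48.2% of the peaks found only at 46hr and 62.0% of those found only at 0hr.

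Cover of the windows can be followed in lists that were not used for the calls, while the 0hr and 46hr values are those that chose the windows. Retained windows called higher had a mean cover of 27.9% (0hr), 41.7% (46hr), 46.3% (60hr) and 38.8% (5day). Retained windows called lower had 24.7% (0hr), 11.1% (46hr), 10.1% (60hr) and 7.57% (5day). Those not called had 38.2% (0hr), 35.0% (46hr), 34.6% (60hr) and 25.2% (5day). Of the 1751 retained windows that had no peak left at 46hr, 17.8% had a 60hr peak, and of the 601 with new peaks 77.7% did. Eliminated windows called lower had 21.6% (0hr), 6.14% (46hr) and 3.09% (60hr). The 57 eliminated windows called higher had 18.1% (0hr), 26.5% (46hr), 20.1% (60hr) and 3.37% (5day).

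**Figure D5:**
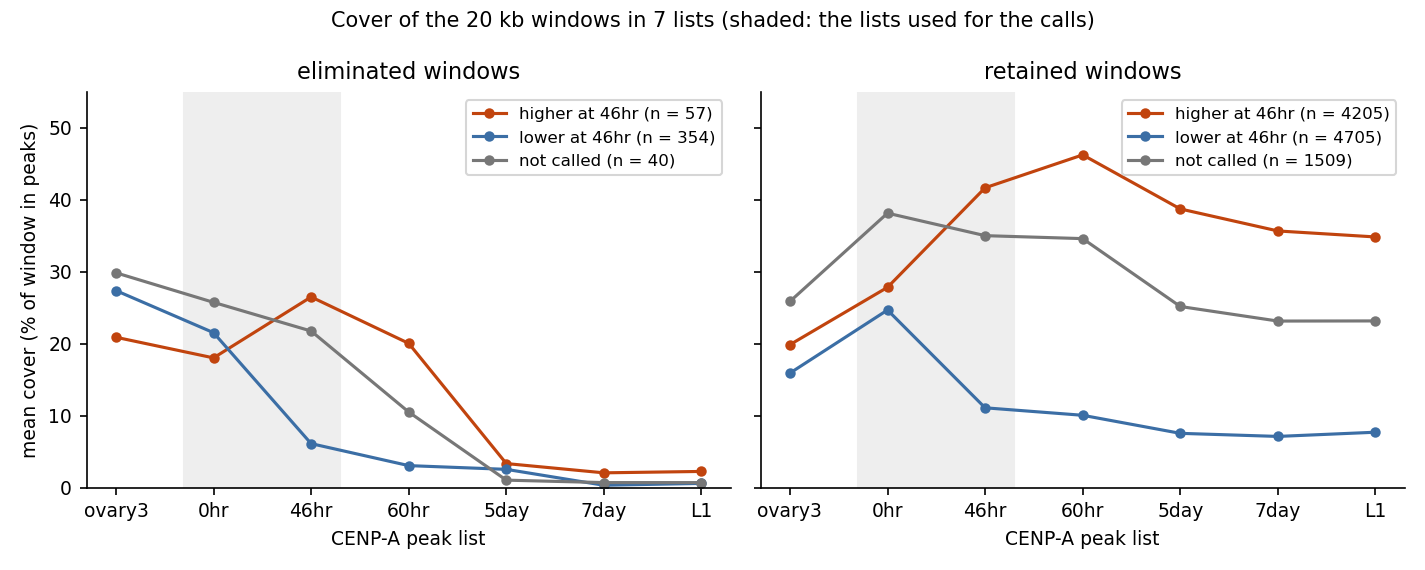
Lines give the mean percent of 20 kb windows in peaks in the lists ovary3, 0hr, 46hr, 60hr, 5day, 7day and L1, for windows called higher, lower or not called at 46hr against 0hr, in eliminated and in retained DNA, and the shaded band marks the 2 lists used for the calls. Retained windows called higher reach 46.3% at 60hr and those called lower stand at 10.1%.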

How the data were processed

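CENP-A peaks of 46hr and 0hr embryos were compared from the deposited peak tables, with 2 libraries per stage. Per the submitters' processing notes, Bowtie2 and MACS2 were used, and their versions and settings are not given in the sources used here. Each table holds scaffold, start, end, 2 coverage columns and the mark, per the file headers. The deposited coverage columns hold whole-number read counts per peak, not normalized. The authors called 1 peak set per stage, and reads outside peaks are not in the tables, so a place with no peak counts as 0. Input libraries were not analysed here, mapped totals were not used, and columns of other samples numbered 0.

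Peak reads were shared among 20 kb windows by base pairs and rounded. Windows, loci and segments with at least 10 reads in at least 2 of the 4 libraries were tested with edgeR 4.0.16 (glmQLFit, glmQLFTest, R 4.3.3), with library size equal to reads in peaks and Benjamini-Hochberg adjustment over all features. Standard errors are the log2 difference over the root of F. Overlaps used Python 3.11.15 with pandas 2.3.3. The model was also run on counts simulated from a negative binomial distribution with a common dispersion. That run had no peaks missing from a list, and loci were fitted without the length offset. It therefore does not show how well the model fits these data. Alternatives were TMM, size factors by edgeR's RLE method, DESeq2 1.42.0, no filter, a replicate block and each library left out. Further ones were other window sizes, denser peaks, other overlap rules and the strongest peak left out. The last was chosen after seeing the data.

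Regions were named by rule: the 8 largest gains and losses of scaled reads over joined windows, the 8 eliminated segments with most 0hr reads and the 4 with the least fall, the 5 largest density rises and falls among called loci of at least 1 kb, the 5 largest splits and merges, the 5 strongest list-only peaks per list, and the 5 largest rises and falls among called retained segments of at least 100 kb. The strongest eliminated peaks were chosen after their values were seen. Members, lists and rules were chosen with earlier results of these data known.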

Additional observations from a re-analysis of the deposited data

How the results depend on the processing

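Calls of eliminated segments and windows kept their balance with TMM, size factors and DESeq2: lower segments were 45 to 47 of 57 and lower windows 345 to 363 of 451. Eliminated loci did not, with 78 higher and 9 lower against 48 and 18 with TMM. Depth is known only within peaks. With each library left out, lower segments ranged from 79 to 169 and lower windows from 2816 to 5167. The low ends came without a 0hr library, where features with a 0hr peak only miss the read minimum. Windows higher and lower numbered 7074 and 8042 at 10 kb and 2177 and 2306 at 50 kb. Loci higher and lower numbered 1494 and 854 with TMM, 1415 and 878 with size factors, 1225 and 85 with DESeq2, 4580 and 3441 without the length offset, and 74 and 2611 with denser peaks, where the cause was not tested. With each library left out, higher loci ranged from 1313 to 3239 and lower loci from 151 to 853.

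Shared peaks under other overlap rules were as follows. With 50% of the peak covered they were 60.8% of 46hr and 51.5% of 0hr peaks, 69.4% and 25.2% in eliminated DNA, and 60.6% and 52.6% in retained DNA. With reciprocal 50% overlap they were 33.0% and 27.4%, 39.2% and 18.9%, and 32.8% and 27.7% in the same order. With denser peaks they were 48.4% and 57.4%, 57.7% and 31.6%, and 48.1% and 58.8%. With lists of equal length they were 72.0% and 66.9%, 77.0% and 37.7%, and 71.9% and 68.1%. Eliminated 0hr peaks were the least shared of these groups under all 4 rules.

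Over all calls, the sign turned in 1069 of 6982 windows, 151 of 1173 loci and 27 of 338 segments with denser peaks, in 289 windows by peak midpoint, in 754 loci without the length offset and in 2 loci with overlap of at least 50% of the shorter peak. Among the windows, loci and segments named in the text, 11 values changed sign. Without the length offset the loci on scaffolds 80 and 50 had log2 differences of -0.51 and 0.045. With whole peaks given to 1 window, single windows inside called stretches turned on scaffold 60 (-0.19), scaffold 65 (-1.34) and scaffold 21 (-1.11 and -0.22). With denser peaks, windows turned on scaffold 21 (-0.99, -0.83 and -0.021), scaffold 27 (-8.03) and scaffold 127 (10.89). The causes were not tested.

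Column numbers were not taken to pair the libraries. With 2 pairs only, the deviations of same-numbered columns correlated at 0.154 over 8215 windows. With the replicate block, windows higher and lower numbered 4299 and 5095, loci 3038 and 597, and segments 211 and 159. The block brought scaffold 204's eliminated segment under the threshold (adjusted p = 0.0497).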

Other observations

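The strongest peak of the 46hr and 0hr lists, on scaffold 84 in eliminated DNA, was in few of the 12 lists. Testis lists 1 to 3 and ovary lists 1 to 3 had no peak overlapping the 0hr interval from 59593 to 61403. It held 52427 and 37113 RPM at 0hr and 34856 and 26209 at 46hr, had no overlapping peak at 60hr or 5day, and held 528 and 522 at 7day and 909 and 825 in L1. The other strong peak of scaffold 84, from 308340 to 310093, was listed in testis1 with 2606 and 835, in testis2 with 608 and 1601 and at 5day with 16.4 and 77.5. Of the 10 strongest eliminated 0hr peaks, 6 overlapped a testis1 peak, 1 an ovary3 peak, 2 a 46hr peak and 7 a 5day peak. None overlapped a 60hr peak. Over all 869 eliminated 0hr peaks, 28.2% overlapped a testis1 peak, 70.5% an ovary3 peak, 36.7% a 46hr peak, 22.7% a 60hr peak and 5.29% a 5day peak. The 10 were chosen on their 0hr level. Each level is a share of that library's own reads in peaks.

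Disagreement of at least 4-fold between libraries was rare by number of peaks. Between the 2 libraries of a stage, 3 of 17417 46hr peaks and 6 of 21100 0hr peaks with a mean above 5 RPM differed by at least 4-fold, and all of these were higher in library 2. Of these, 1 at 46hr and 3 at 0hr were in eliminated DNA.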
